A study of Mus musculus with 15 samples.

Results

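Transcripts of respiratory complexes III, IV and V were followed in inguinal white adipose tissue, the subcutaneous fat pad of the mouse groin. The genes were chosen by name: all rows of the gene count table whose symbol begins with Uqcr, with Atp5 or with Cox and a digit, together with Cyc1 and Cycs. Of 54 such rows, Cox8b and Cox7a1 were left out by name. Of the other 52, 50 genes reached a CPM (counts scaled to a common library size) of 1 in at least 3 libraries, and all 50 were tested, out of 24015 genes in the table and 15288 tested. Cox8c, with 0 counts in every library, and Cox7b2, with at most 1 count, fell below that limit. The kept genes nearest to it, Cox6b2 with 14 libraries at 1 CPM or more and Cox6a2 and Cox4i2 with 15, were well inside. By role the genes fall into 10 for complex III with cytochrome c, 14 for complex IV, 9 for the assembly of complex IV, 15 for complex V, and 2, Atp5s and Atp5sl, that have an Atp5 name without being subunits.

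All mice were C57BL/6 and were housed at thermoneutrality, where no heat production is needed, for 2 weeks before 5 days of intraperitoneal CL or vehicle. They were 2 months old (Young_CL and the vehicle group Young_Ctrl, 4 libraries each) or 12 months old (Old_CL, 4 libraries, and the vehicle group Old_Ctrl, 3 libraries numbered 1, 3 and 4, with replicate 2 not analysed here). In the labels CL stands for cardiolipin; a β-adrenergic agonist often goes by the same letters, and since the sources used here do not settle the compound, it is called CL. The study compared how white fat remodels into beige fat under CL in young and aged mice. Nothing in the labels says that each library came from its own animal, so the p-values cover the spread among the samples, which may be technical.

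Complex III passes electrons from ubiquinol to cytochrome c, complex IV passes them from cytochrome c to oxygen, and both pump protons across the inner mitochondrial membrane. Complex V, the ATP synthase, lets the protons back through a rotating ring of c subunits and makes ATP. In brown and beige adipocytes the uncoupling protein UCP1 returns protons without making ATP, and brown fat of rodents is known for much respiratory chain and little ATP synthase. The genes here are all nuclear, and the few subunits encoded by mitochondrial DNA are not among them.

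Total counts ran from 6115542 to 51577001 per library. The adipocyte markers Adipoq, Plin1 and Fabp4 were present in every library, with Adipoq between 877 and 6093 normalised CPM. The summed level of 19 skeletal muscle markers, including Acta1, Myh4, Ckm and Mylpf, was 3270 to 9867 normalised CPM in Young_CL 1, 2 and 3, Old_Ctrl 3 and Old_CL 3 and 120 to 556 in the other 10 libraries. Old_CL 1, 2 and 4 resembled each other more than any other pair of libraries of 1 group (robust SD of log2 ratios 0.0636 to 0.0933, against 0.116 to 0.747). Levels below are CPM on TMM-scaled library sizes, called normalised CPM, and a gene is said to rise or fall where edgeR's quasi-likelihood test gave an adjusted p under 0.05 over all 15288 genes.

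The 50 genes together took 0.648 to 0.868% of the counts in Young_Ctrl and 1.92 to 2.28% in Young_CL. In Old_Ctrl they took 0.675 to 0.745% and in Old_CL 1.43 to 1.63%. The vehicle groups overlapped, and every CL library was above every vehicle library, with the Young_CL libraries all above the Old_CL libraries. At 2 months 44 of the 50 genes rose under CL, 0 fell and 6 did not pass, beside 21.7% of all tested genes called higher and 22.1% called lower. Their median log2 change was 1.68, against -0.07 over all genes, and 36 rose at least 2-fold, beside 7.38% of all genes. At 12 months 42 rose, 1 fell and 7 did not pass, beside 23.1% of all genes called higher and 22.2% lower, with a median of 1.0 against -0.01 and 25 rising at least 2-fold, beside 6.29% of all genes. Genes called higher at both ages numbered 42 of the 50, beside 14.5% of all tested genes. In bulk tissue, more cells of a type and more RNA per cell cannot be told apart. The summed level of 9 brown and beige adipocyte markers, among them Ucp1, Cidea, Dio2 and the Cox8b and Cox7a1 left out above, was also higher under CL: it was 72.7 to 223 normalised CPM in Young_Ctrl, 1836 to 2711 in Young_CL, 57.8 to 59.0 in Old_Ctrl and 587 to 713 in Old_CL. That of 8 adipocyte markers was 10675 to 25090 in Young_Ctrl, 35854 to 42546 in Young_CL, 18166 to 28107 in Old_Ctrl and 46087 to 60755 in Old_CL. In the CL comparisons 8 of the 9 brown and beige markers were higher at each age, and of the 8 adipocyte markers 6 were higher at 2 months and 7 at 12 months.

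Markers of other cell types moved under CL as well. B cell and lymph node markers were lower in 7 of 7 cases at 2 months and 5 of 7 at 12 months, with a summed level of 1158 to 1629 normalised CPM in Young_Ctrl, 680.1 to 972 in Young_CL, 399.7 to 827 in Old_Ctrl and 364 to 480.5 in Old_CL. T cell markers were lower in 7 of 7 at each age (sums of 460.1 to 864, 368 to 400.3, 368 to 429 and 123 to 189.6 in the same order). Macrophage markers were lower in 0 of 7 at 2 months and 5 of 7 at 12 months (699 to 989.6, 359 to 1044, 1367 to 2675 and 854 to 1306), and fibroblast and progenitor markers in 1 of 5 and 5 of 5 (3131 to 4833, 1875 to 4713, 3696 to 10419 and 2460 to 2710). Erythrocyte markers were higher in 0 of 3 at 2 months and 3 of 3 at 12 months (139 to 208, 172 to 276, 192 to 434 and 516 to 642). With age, B cell and lymph node markers were lower in 7 of 7 cases under vehicle and 7 of 7 under CL. T cell markers were lower with age in 5 of 7 and 7 of 7, in the same order. Macrophage markers were higher with age in 6 of 7 under vehicle and 2 of 7 under CL. For fibroblast and progenitor markers these numbers were 3 of 5 and 0 of 5, and for erythrocyte markers 2 of 3 and 3 of 3. The part of these markers and of the adipocyte markers in the changes of the 50 genes was not tested.

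**Figure D1:**
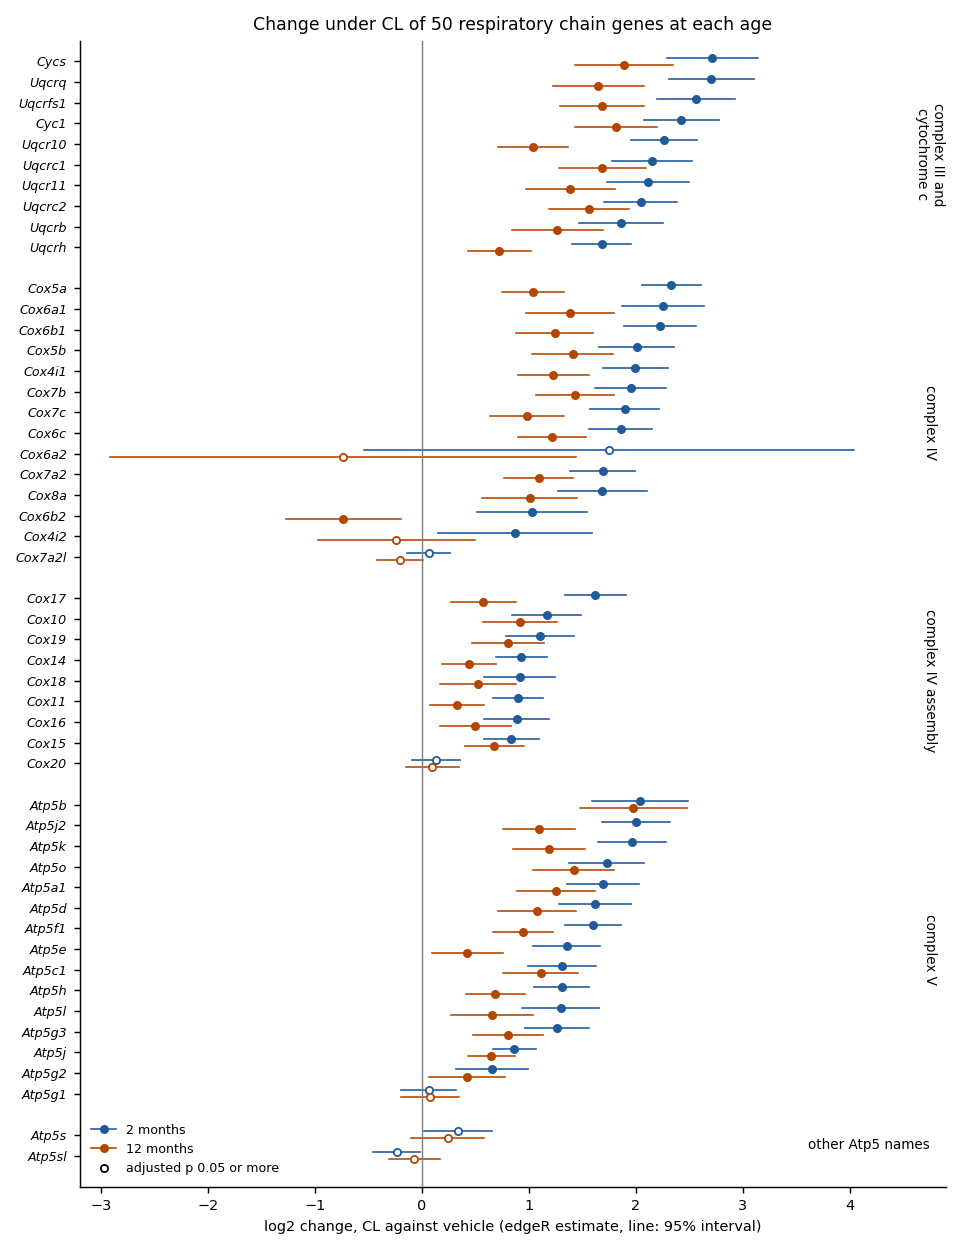
Log2 change under CL with its 95% interval for each of the 50 genes at 2 months (blue) and 12 months (orange), grouped by role; open symbols did not pass the test. All 10 genes of complex III and cytochrome c lie above 0 at both ages, and Cox7a2l, Cox20 and Atp5g1 lie near 0 at both.

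Complex III with cytochrome c had the highest median change of the classes. All 10 genes rose at both ages, with a median log2 change of 2.21 at 2 months and 1.61 at 12 months. Cycs, the mobile electron carrier cytochrome c, stood at 65.1, 37.5, 37.8 and 31.7 normalised CPM in Young_Ctrl 1 to 4 and at 301, 251, 245 and 325 in Young_CL 1 to 4. In aged mice it stood at 41.2, 38.1 and 46.8 in Old_Ctrl 1, 3 and 4 and at 154, 128, 177 and 162 in Old_CL 1 to 4. The CL and vehicle libraries did not overlap at either age, and Young_Ctrl 1 was the highest vehicle library. The change was 6.56-fold at 2 months (log2 change 2.71, SE 0.19, edgeR adjusted p = 7.65e-08) and 3.69-fold at 12 months (log2 change 1.89, SE 0.21, edgeR adjusted p = 1.81e-05).

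Cyc1, cytochrome c1 of the complex itself, went from 194, 154, 126 and 113 normalised CPM in Young_Ctrl to 854, 803, 663 and 831 in Young_CL. At 12 months it went from 141, 153 and 178 in Old_Ctrl to 531, 535, 618 and 529 in Old_CL. Both CL groups were clear of their vehicle groups, and each Young_CL library was above each Old_CL library (log2 change 2.42, SE 0.16, edgeR adjusted p = 4.8e-08 at 2 months; log2 change 1.81, SE 0.17, edgeR adjusted p = 6.9e-06 at 12 months). The Rieske iron-sulfur protein gene Uqcrfs1 rose from 129.7 ± 28.3 to 762 ± 111 (SD, n = 4 and 4, log2 change 2.56) and from 133 ± 23.1 to 426 ± 41.3 (SD, n = 3 and 4, log2 change 1.68). Of the core proteins, Uqcrc1 rose by 2.15 and 1.69 and Uqcrc2 by 2.04 and 1.56 on the log2 scale at 2 and 12 months.

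Of the small subunits, Uqcrq rose by 2.71 at 2 months and 1.65 at 12 months, Uqcr11 by 2.11 and 1.39, and Uqcrb by 1.86 and 1.27. The smallest change at both ages was that of Uqcrh, the hinge protein next to cytochrome c1, which rose by 1.68 and 0.72. Uqcr10 stood at 75.4, 64.5, 56.1 and 52.1 normalised CPM in Young_Ctrl and 331, 346, 237 and 271 in Young_CL. It stood at 72.3, 80.2 and 91.4 in Old_Ctrl and 161, 169, 179.5 and 159 in Old_CL, so that the lowest Young_CL library was above the highest Old_CL library while the vehicle groups overlapped.

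Complex IV rose in 12 of its 14 genes at 2 months (median log2 change 1.88) and in 10 at 12 months (median 1.06), with 1 falling. Cox5a, a structural subunit on the matrix side, stood at 116, 95, 98.9 and 102 normalised CPM in Young_Ctrl and 614, 566, 431 and 462 in Young_CL. At 12 months its levels were 106, 96.9 and 117 in Old_Ctrl and 227, 200.1, 233 and 214 in Old_CL. The vehicle groups overlapped, and the young CL libraries were all above the aged ones (log2 change 2.33, SE 0.12, edgeR adjusted p = 1.21e-08 at 2 months; log2 change 1.04, SE 0.13, edgeR adjusted p = 4.03e-05 at 12 months). Cox5b, a zinc-binding subunit, rose by 2.01 at 2 months and 1.41 at 12 months, and Cox7b, with the largest change of the complex at 12 months, by 1.95 and 1.43. Cox6b1, Cox6c, Cox7a2, Cox7c and Cox8a rose at both ages, by 1.69 to 2.23 at 2 months and 0.98 to 1.24 at 12 months.

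**Figure D2:**
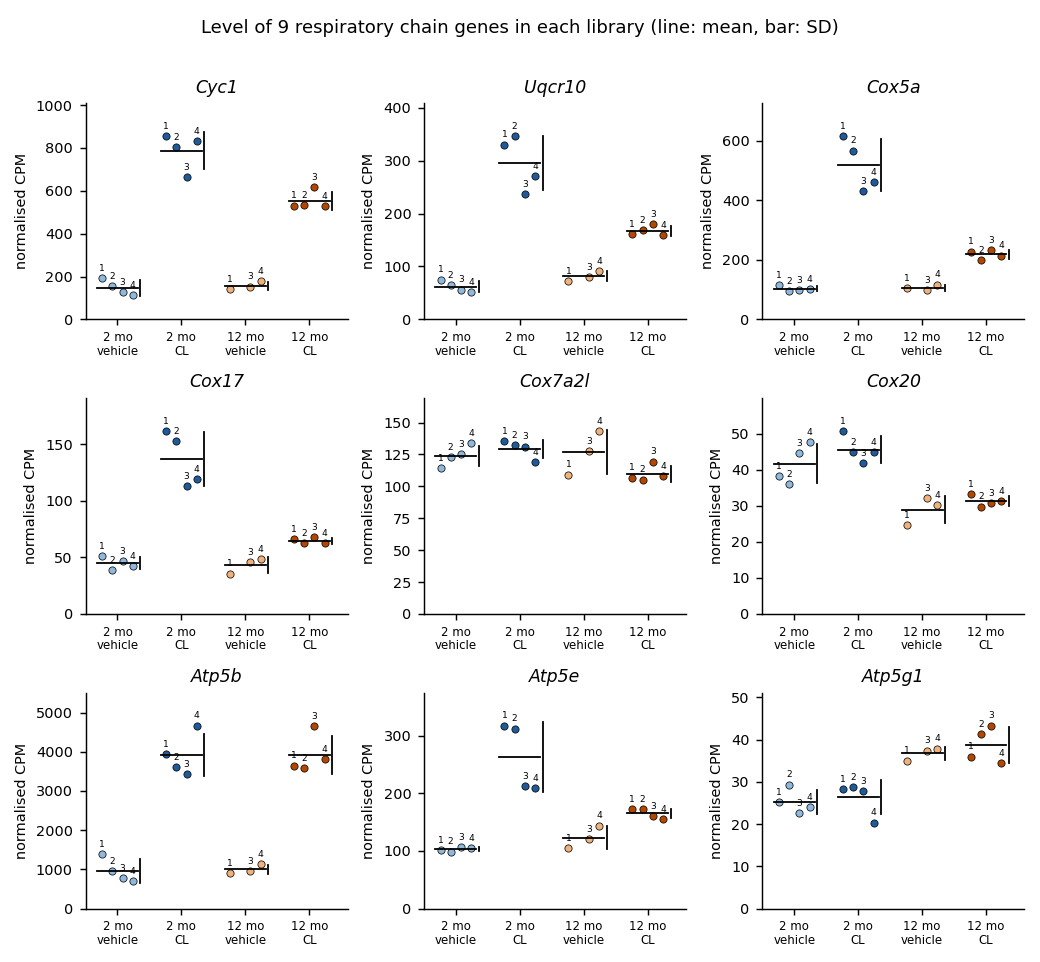
Normalised CPM of 9 genes in each library, with the replicate number above each point, the group mean as a horizontal line and the SD as a vertical bar. Cyc1, Uqcr10, Cox5a, Cox17, Atp5b and Atp5e are higher in every CL library than in every vehicle library of the same age, whereas Cox7a2l, Cox20 and Atp5g1 overlap.

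Where complex IV has a ubiquitous and a tissue-restricted isoform, both were read. Cox4i1, the ubiquitous subunit 4, rose from 322 ± 36.2 to 1281 ± 211 normalised CPM at 2 months (SD, n = 4 and 4, log2 change 1.99) and from 402 ± 45.2 to 943 ± 58.5 at 12 months (SD, n = 3 and 4, log2 change 1.23). Cox4i2, the isoform known from lung and low oxygen, had 19 to 199 counts per library. It stood at 2.5, 4.73, 2.1 and 1.28 in Young_Ctrl and 3.13, 5.84, 4.64 and 5.49 in Young_CL, groups that overlapped (log2 change 0.87, SE 0.33, edgeR adjusted p = 0.0406), and this call was lost in 10 of 19 alternative analyses. At 12 months it was at -0.24 (edgeR adjusted p = 0.583).

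Cox6a1, the isoform of most tissues, rose from 209 ± 50.9 to 997 ± 138 at 2 months and from 285 ± 46.8 to 746 ± 76.8 normalised CPM at 12 months (SD, n = 4, 4, 3 and 4; log2 changes 2.25 and 1.39). Cox6a2, the heart and skeletal muscle isoform, did not pass at either age (log2 change 1.75, SE 1.04, edgeR adjusted p = 0.19 at 2 months; log2 change -0.74, SE 0.99, edgeR adjusted p = 0.565 at 12 months). It stood at 3.55, 2.75, 1.17 and 2.39 in Young_Ctrl, 8.81, 14.4, 6.79 and 1.21 in Young_CL, 2.88, 18.1 and 1.66 in Old_Ctrl and 1.21, 1.19, 14.1 and 1.5 in Old_CL. The 5 highest values were those of Young_CL 1, 2 and 3, Old_Ctrl 3 and Old_CL 3, which are also the 5 libraries highest in the muscle markers, and all 10 others were below 3.6. Its calls turned on these libraries: without Old_CL 3 it was lower under CL at 12 months (log2 change -2.61, edgeR adjusted p = 0.0387), lower at 12 than at 2 months under CL (-2.61, edgeR adjusted p = 0.0402) and passed the test of the difference in CL changes (-4.36, edgeR adjusted p = 0.0472). Fitted on the 2 groups of 2 months alone it was higher under CL (1.75, edgeR adjusted p = 0.0372). The mean level of the 50 genes was 7.45 log2 CPM in Young_CL 4, the young CL library low in muscle transcripts, against 7.35 to 7.65 in the other 3. In Old_Ctrl 3 it was 6.16, between the 6.01 and 6.25 of Old_Ctrl 1 and 4, and in Old_CL 3 it was 7.18, above the 6.95 to 6.96 of Old_CL 1, 2 and 4.

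**Figure D3:**
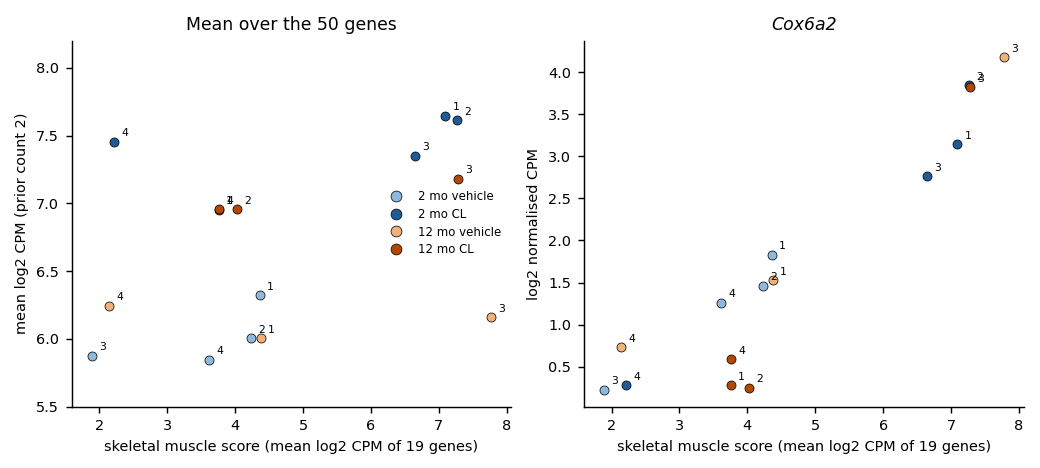
Mean log2 CPM of the 50 genes (left) and log2 normalised CPM of Cox6a2 (right) against a skeletal muscle score, the mean log2 CPM of 19 muscle genes, in each library, numbered by replicate. On the left every CL library lies above every vehicle library, from 6.95 against at most 6.32, and on the right the 5 libraries with a score above 6.6 hold the 5 highest Cox6a2 values.

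Cox6b2, a testis isoform of subunit 6b, was the one gene with calls in opposite directions at the 2 ages. It had 11 to 130 counts per library and stood at 1.71, 1.72, 1.46 and 1.73 normalised CPM in Young_Ctrl and 4.21, 3.51, 2.98 and 2.5 in Young_CL, where every library was above every vehicle library (log2 change 1.02, SE 0.23, edgeR adjusted p = 0.00253). At 12 months it stood at 1.59, 2.33 and 2.55 in Old_Ctrl and 0.856, 1.69, 1.38 and 1.39 in Old_CL, groups that overlapped (log2 change -0.73, SE 0.24, edgeR adjusted p = 0.0235). The fall was lost in 5 of 18 alternative analyses, among them those without Old_Ctrl 3 (edgeR adjusted p = 0.0698), Old_Ctrl 4 (edgeR adjusted p = 0.0916) and Old_CL 1 (edgeR adjusted p = 0.0659), the last being the library with the lowest level.

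Cox7a2 and Cox7a2l are related in sequence and differ in role: Cox7a2 is a subunit, and Cox7a2l helps complexes III and IV join into supercomplexes. Cox7a2 rose from 94.8 ± 20.3 to 305 ± 33.9 normalised CPM at 2 months and from 95.7 ± 11.1 to 204 ± 14.1 at 12 months (SD, n = 4, 4, 3 and 4). Cox7a2l stood at 114, 123, 125 and 134 in Young_Ctrl, 135, 132, 131 and 119 in Young_CL, 109, 127 and 143 in Old_Ctrl and 107, 105, 119 and 108 in Old_CL. Its groups overlapped at both ages, with a log2 change of 0.06 (95% interval -0.14 to 0.26, edgeR adjusted p = 0.608) at 2 months and -0.21 (95% interval -0.42 to 0.01, edgeR adjusted p = 0.0967) at 12 months. The aged change passed as a fall under upper-quartile scaling (edgeR adjusted p = 0.0283), in DESeq2 (adjusted p = 0.046) and without Old_Ctrl 1 (edgeR adjusted p = 0.0285). On the log2 scale Cox7a2l was -0.13 to 0.65 relative to Cox7a2 in Young_Ctrl and -1.35 to -1.02 in Young_CL, and 0.37 to 0.43 in Old_Ctrl and -0.99 to -0.82 in Old_CL.

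Assembly factors of complex IV rose in 8 of 9 cases at each age, with medians of 0.91 and 0.52. Cox17, the copper chaperone that feeds the metal centres of complex IV, stood at 50.9, 38.8, 46.7 and 42.6 normalised CPM in Young_Ctrl and 162, 153, 113 and 119.6 in Young_CL. In aged mice it was at 35.7, 45.6 and 48.6 under vehicle and 66.1, 62.6, 67.9 and 62.5 under CL, higher in every CL library but by less (log2 change 1.62, SE 0.13, edgeR adjusted p = 1.84e-07 at 2 months; log2 change 0.57, SE 0.14, edgeR adjusted p = 0.00367 at 12 months). Cox10 and Cox15, the enzymes that make haem A, rose by 1.17 and 0.83 at 2 months and by 0.92 and 0.68 at 12 months. Cox11 and Cox19, which act in copper delivery, rose by 0.90 and 1.10 at 2 months and by 0.33 and 0.80 at 12 months, the Cox11 call at 12 months passing in 10 of 18 alternative analyses. Cox14, Cox16 and Cox18, the last of which inserts subunit 2 into the membrane, rose by 0.88 to 0.93 at 2 months and 0.44 to 0.52 at 12 months.

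Cox20, a chaperone of newly made subunit 2, did not pass under CL and instead differed with age. It stood at 38.1, 36.1, 44.6 and 47.7 in Young_Ctrl, 50.7, 45, 41.8 and 44.8 in Young_CL, 24.6, 32.1 and 30.1 in Old_Ctrl and 33.2, 29.8, 30.7 and 31.3 normalised CPM in Old_CL. Each library of 12 months was below each library of 2 months under the same treatment (log2 change -0.52, SE 0.11, edgeR adjusted p = 0.00493 under vehicle; -0.55, SE 0.10, edgeR adjusted p = 0.000757 under CL). Under CL the log2 change was 0.13 at 2 months and 0.10 at 12 months (edgeR adjusted p = 0.317 and 0.494).

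Complex V rose in 14 of its 15 genes at each age, with medians of 1.35 and 0.94. Atp5b, the catalytic β subunit, stood at 1382, 958, 778 and 695 normalised CPM in Young_Ctrl and 3947, 3614, 3435 and 4669 in Young_CL. At 12 months it stood at 912, 952 and 1124 in Old_Ctrl and 3643, 3587, 4644 and 3802 in Old_CL, so that the CL groups of both ages overlapped (log2 change 2.04, SE 0.20, edgeR adjusted p = 1.58e-06 at 2 months; log2 change 1.98, SE 0.23, edgeR adjusted p = 2.1e-05 at 12 months). The difference between the CL groups was 0.00 (95% interval -0.43 to 0.43). The other subunit of the catalytic head, Atp5a1 (α), rose by 1.69 and 1.25 at 2 and 12 months. In the central stalk Atp5c1 (γ) rose by 1.31 and 1.11 and Atp5d (δ) by 1.62 and 1.07. Atp5e, the ε subunit of the central stalk, rose by 1.35 at 2 months and by 0.42 at 12 months, the second with edgeR adjusted p = 0.0321 and lost in 7 of 18 alternative analyses.

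In the peripheral stalk, Atp5o, which ties the stalk to the head, rose by 1.73 and 1.42, Atp5f1 (subunit b) by 1.60 and 0.94, Atp5h (d) by 1.30 and 0.69 and Atp5j (F6) by 0.86 and 0.65. Among the membrane subunits, Atp5j2 (f) rose from 95.4 ± 17.3 to 380.4 ± 60.9 normalised CPM at 2 months and from 101 ± 8.86 to 216 ± 24.6 at 12 months (SD, n = 4, 4, 3 and 4). Atp5k (e) rose by 1.96 and 1.19 and Atp5l (g) by 1.30 and 0.65.

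Complex V had lower median changes than complex III at both ages, and the gap was read within each library. The mean log2 CPM of the 15 complex V genes minus that of the 10 genes of complex III and cytochrome c was 0.02 to 0.23 in Young_Ctrl and -0.79 to -0.61 in Young_CL. It was 0.17 to 0.29 in Old_Ctrl and -0.34 to -0.27 in Old_CL, with no overlap between CL and vehicle at either age and none between the 2 CL groups. For complex IV minus complex III the values were -1.07 to -0.78 in Young_Ctrl, -1.76 to -1.36 in Young_CL, -0.89 to -0.59 in Old_Ctrl and -1.61 to -1.39 in Old_CL. Complex IV here includes Cox7a2l, the low-count isoforms Cox4i2 and Cox6b2 and the muscle isoform Cox6a2, each weighted like the other genes. Their part in the shift of complex IV against complex III was not tested. The libraries rich in muscle transcripts had the highest values of their groups: -1.52 to -1.36 in Young_CL 1, 2 and 3 against -1.76 in Young_CL 4, -0.59 in Old_Ctrl 3 and -1.39 in Old_CL 3. These are differences of levels that are not scaled by gene length, so only their shift between libraries can be read.

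The c subunit of ATP synthase, which forms the proton-carrying ring, is encoded by 3 genes whose mature proteins are the same, and the 3 are given side by side. Atp5g1 stood at 25.1, 29.3, 22.7 and 24.1 normalised CPM in Young_Ctrl, 28.3, 28.8, 27.8 and 20.4 in Young_CL, 35, 37.4 and 37.9 in Old_Ctrl and 35.9, 41.3, 43.3 and 34.4 in Old_CL. It overlapped between CL and vehicle at both ages (log2 change 0.06, 95% interval -0.20 to 0.32, edgeR adjusted p = 0.698 at 2 months; 0.07, 95% interval -0.20 to 0.35, edgeR adjusted p = 0.646 at 12 months), and at 12 months every library was above every library of 2 months. Over 19 alternative analyses its change under CL at 2 months lay between -0.32 and 0.17 and passed in none.

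Atp5g2 stood at 48, 44.7, 25.2 and 32.3 in Young_Ctrl, 53.8, 59.8, 55.8 and 65.4 in Young_CL, 50.7, 49.5 and 50.3 in Old_Ctrl and 68.7, 61.6, 73.4 and 65.3 in Old_CL. It rose without overlap at both ages, by 0.66 (edgeR adjusted p = 0.00292) and 0.42 (edgeR adjusted p = 0.0449), the latter call being lost in 12 of 18 alternative analyses. Atp5g3 stood at 288, 226, 262 and 229 in Young_Ctrl, 685, 672, 568 and 492 in Young_CL, 245, 285 and 346 in Old_Ctrl and 514, 499.6, 537 and 488 in Old_CL, and rose by 1.27 and 0.80 (edgeR adjusted p = 3.29e-06 and 0.00056). As a share of the counts of the 3 genes, Atp5g1 went from 8.12 ± 1.27% to 3.82 ± 0.321% at 2 months (SD, n = 4 and 4) and from 9.79 ± 0.963% to 6.29 ± 0.533% at 12 months (SD, n = 3 and 4). Its share was lower in every CL library than in every vehicle library of the same age, and no higher than 4.27% in Young_CL against at least 5.81% in Old_CL. Counts are not scaled by transcript length, so the shares can be compared between libraries and not between the genes. How reads that match several related copies were counted is not given in the sources used here, and many genes of this kind have processed pseudogenes.

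**Figure D4:**
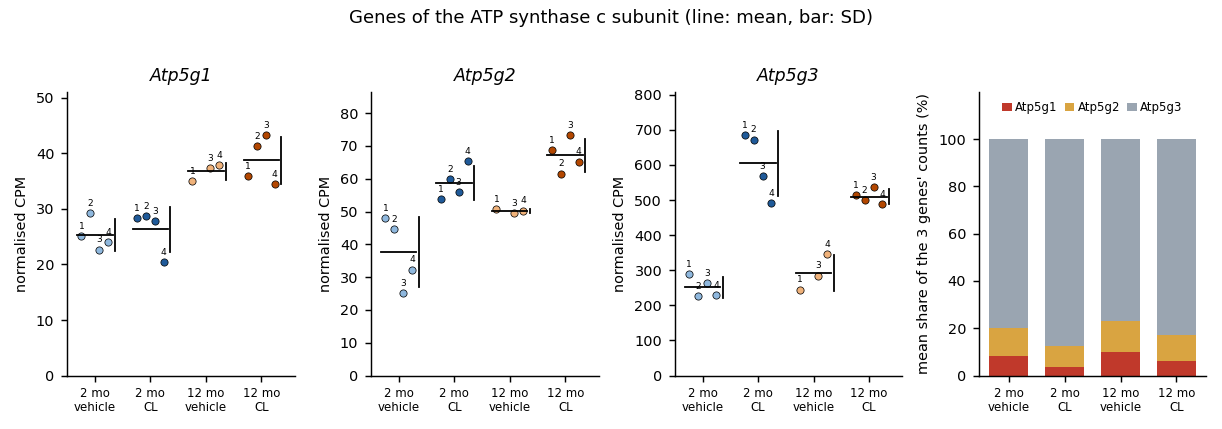
Normalised CPM of Atp5g1, Atp5g2 and Atp5g3 in each library (points numbered by replicate, line for the mean, bar for the SD) and the mean share of each gene in the counts of the 3 genes by group. Atp5g1 overlaps between vehicle and CL at each age and is higher at 12 months, while Atp5g2 and Atp5g3 are higher under CL, so the Atp5g1 share is smaller under CL.

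The 250 bases before the start of these 3 genes, from the RefSeq table of GRCm38.p6, are shown because the genes share a product, with those of Cox6a1 as a gene of complex IV that holds several matches. Capitals mark the letters of 3 motifs found on either strand: GCGCA and GCGC with any 1 base between them for NRF1, CCGGAAG for the ETS family to which GABPA belongs, and TNAAGGTCA for ESRRA, all known regulators of respiratory chain genes. All 4 lie on the minus strand of the assembly and are written 5′ to 3′ along the gene, at chr11:96075632-96075881, chr15:102671048-102671297, chr2:73911327-73911576 and chr5:115348959-115349208.
Atp5g1: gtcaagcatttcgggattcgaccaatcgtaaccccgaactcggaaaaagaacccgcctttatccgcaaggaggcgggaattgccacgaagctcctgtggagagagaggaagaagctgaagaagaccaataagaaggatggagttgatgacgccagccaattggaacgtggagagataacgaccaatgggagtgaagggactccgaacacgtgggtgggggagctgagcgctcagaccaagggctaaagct
Atp5g2: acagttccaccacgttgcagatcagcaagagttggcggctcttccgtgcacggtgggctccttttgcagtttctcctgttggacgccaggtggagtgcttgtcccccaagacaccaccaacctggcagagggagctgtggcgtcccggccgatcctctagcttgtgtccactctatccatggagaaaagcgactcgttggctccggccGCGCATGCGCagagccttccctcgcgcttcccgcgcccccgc
Atp5g3: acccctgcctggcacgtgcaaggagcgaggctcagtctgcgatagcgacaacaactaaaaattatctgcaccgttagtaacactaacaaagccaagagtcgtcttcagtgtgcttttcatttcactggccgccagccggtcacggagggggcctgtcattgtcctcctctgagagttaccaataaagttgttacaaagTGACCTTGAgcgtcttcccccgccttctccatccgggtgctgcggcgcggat
Cox6a1: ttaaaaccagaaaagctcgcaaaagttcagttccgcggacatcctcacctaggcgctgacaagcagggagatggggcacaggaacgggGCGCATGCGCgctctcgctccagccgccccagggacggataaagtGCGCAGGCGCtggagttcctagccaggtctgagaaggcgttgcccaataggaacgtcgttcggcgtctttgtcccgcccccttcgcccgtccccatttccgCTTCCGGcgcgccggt
The window of Atp5g1 holds none of the 3 letter strings, that of Atp5g2 holds GCGCATGCGC, that of Atp5g3 holds TGACCTTGA, which is the ESRRA string on the other strand, and that of Cox6a1 holds GCGCATGCGC, GCGCAGGCGC and CTTCCGG, the ETS string on the other strand. Of the 50 genes 36 had an entry in the table, 4 of them with more than 1 window, which gives 40 windows, and a gene is counted where any of its windows holds the string. The NRF1 string was found for 5 of 36 genes (13.9%), against 8.25% of all tested genes with an entry and 4.23% of all genes in the table. The ETS string was found for 11 genes (30.6%, against 13.9% and 7.83%) and the ESRRA string for 1 (2.78%, against 0.871% and 1.3%). These are matches of letters and no measure of binding.

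Atp5s and Atp5sl did not pass under CL at either age. Atp5s, which encodes coupling factor B, was at 0.34 (edgeR adjusted p = 0.0739) and 0.24 (edgeR adjusted p = 0.223). Atp5sl Atp5sl encodes a related protein that acts in the assembly of complex I. Atp5sl stood at 48.8, 51.9, 51.5 and 53.9 normalised CPM in Young_Ctrl, 42.1, 40.2, 44.4 and 48.8 in Young_CL, 40.2, 39.4 and 29.2 in Old_Ctrl and 32.7, 35.5, 32.6 and 36.8 in Old_CL. Both age groups were apart under each treatment, lower at 12 months (log2 change -0.51, edgeR adjusted p = 0.0042 under vehicle; -0.35, edgeR adjusted p = 0.0117 under CL). At 2 months every Young_CL library was at or below every Young_Ctrl library for Atp5sl. That change, -0.24 with edgeR adjusted p = 0.0662, passed as a fall under upper-quartile scaling (edgeR adjusted p = 0.0188), in DESeq2 (adjusted p = 0.0498) and without Young_CL 4 (edgeR adjusted p = 0.0354).

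Under vehicle few of these genes passed the test of age. At 12 against 2 months 2 of the 50 were called higher, beside 15.1% of all tested genes, and 2 lower, beside 12.2%, with a median log2 difference of 0.08. Atp5g1 (log2 change 0.54, SE 0.13, edgeR adjusted p = 0.00657) and Cox8a, a small subunit of complex IV (log2 change 0.59, SE 0.20, edgeR adjusted p = 0.0367), were higher, and Cox20 and Atp5sl were lower. Cox8a stood at 363, 291, 201 and 194 normalised CPM in Young_Ctrl and 352, 348 and 485 in Old_Ctrl, groups that overlapped through Young_Ctrl 1, and its call was lost in 7 of 18 alternative analyses. Young_Ctrl 1 was above the other 3 vehicle libraries of 2 months in the mean of the 50 genes (6.32 log2 CPM against 5.85 to 6.01). Its summed adipocyte markers were also higher (25090 against 10675 to 12830 normalised CPM), as were its brown and beige markers (223 against 72.7 to 124). Its B cell and T cell marker sums were the lowest of the group. The part of these markers in the calls was not tested. Without Young_Ctrl 1, 14 genes were called, 12 of them higher, and Atp5g1, Cox20 and Atp5sl were still among the calls. The share of all genes called in that fit is not given here. Whether the added calls are particular to these genes therefore cannot be read.

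Under CL more of these genes passed the test of age; how far this differs from vehicle is given by the test of the difference in the CL changes. At 12 against 2 months 29 of the 50 genes were lower, beside 19.4% of all tested genes, and 1, Atp5g1, was higher (log2 change 0.56, SE 0.12, edgeR adjusted p = 0.00168), beside 20.5%. The median differences were -0.72 for complex III with cytochrome c (9 of 10 lower), -0.60 for complex IV (9 of 14), -0.33 for its assembly (4 of 9) and -0.25 for complex V (5 of 15). The groups did not overlap for 32 genes that were lower, beside 21.4% of all genes. Cox5a (log2 change -1.25, SE 0.12, edgeR adjusted p = 3.21e-06), Cox17 (log2 change -1.08, SE 0.13, edgeR adjusted p = 1.87e-05), Cox11 (log2 change -0.86, SE 0.10, edgeR adjusted p = 2.51e-05) and Uqcrh (log2 change -0.96, SE 0.12, edgeR adjusted p = 4.17e-05) had the smallest p-values. In complex V the lower genes were Atp5e (-0.67), Atp5f1 (-0.70), Atp5h (-0.52), Atp5j2 (-0.82) and Atp5k (-0.62), while Atp5a1 (-0.36), Atp5b (0.00), Atp5c1 (-0.25) and Atp5o (-0.07) did not pass. Fewer of these genes passed without the 5 libraries rich in muscle transcripts, which leaves 1 Young_CL library, so no count is given for that fit. The share of all genes called in it is not given either. With all 15 libraries, 8 of the 9 brown and beige adipocyte markers were lower at 12 months under CL, with a median of -1.90. Of the 8 adipocyte markers 4 were higher and 0 lower, with a median of 0.53. B cell and T cell markers were lower in 7 of 7 each. The part of these markers was not tested.

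The test of the difference itself, the CL change at 12 months minus that at 2 months, was below 0 for 48 of the 50 genes, with a median of -0.60 against -0.02 over all genes. It passed for 17, all with a smaller rise or a fall at 12 months, beside 3.77% of all tested genes called lower and 3.31% called higher. Cox5a had the smallest p (difference -1.29, SE 0.17, edgeR adjusted p = 0.00118), followed by Uqcr10 (-1.22, SE 0.20, edgeR adjusted p = 0.00337), Cox17 (-1.05, SE 0.19, edgeR adjusted p = 0.00564) and Uqcrh (-0.96, SE 0.18, edgeR adjusted p = 0.00782). The genes that passed were 4 of 10 in complex III with cytochrome c, 6 of 14 in complex IV, 2 of 9 in its assembly and 5 of 15 in complex V. Among the isoform genes, Cox6a1 (-0.87), Cox6b1 (-0.99), Cox6b2 (-1.76) and Cox4i1 (-0.77) passed, whereas Cox7a2 (-0.60), Cox7a2l (-0.27), Atp5g1 (0.01), Atp5g2 (-0.23) and Atp5g3 (-0.46) did not, and the differences between these genes were not tested. Over 25 alternative analyses the call held in 9 for Cox6a1, 14 for Cox4i1, 23 for Cox6b1 and 24 for Cox6b2, and Cox7a2 passed in 2. Atp5b was at -0.06 (95% interval -0.70 to 0.57).

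The number of such genes depended on single libraries. It was 32 without Young_Ctrl 1 and 6 without Old_Ctrl 4. Summing the similar Old_CL 1, 2 and 4 to 1 library gave 3, and the muscle score as a covariate gave 10. Leaving out Young_Ctrl 3, Young_CL 1, Young_CL 2, Old_CL 1, Old_CL 2 or Old_CL 4 gave 9 or 10. The share of all genes called under these settings is not given here. Cox5a (-1.37 to -1.20) and Uqcr10 (-1.33 to -1.13) passed in all 25 alternative analyses. Leaving out the 5 libraries rich in muscle transcripts leaves 1 Young_CL library, so only estimates are given here for that fit. In it Cox5a stayed at -1.22 and Uqcr10 at -1.14. Uqcrq was at -1.06 in that fit and -1.06 with all libraries, Cox6b2 at -1.32 and -1.76, and Atp5e at -0.59 and -0.93.

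**Figure D5:**
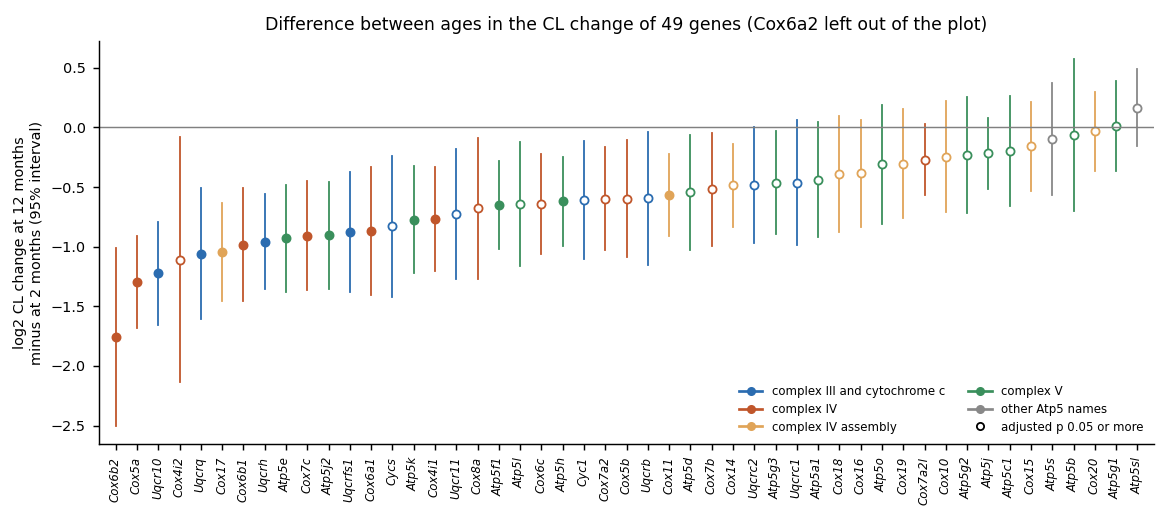
CL change at 12 months minus that at 2 months on the log2 scale, with its 95% interval, for 49 of the 50 genes ordered by value and coloured by role; Cox6a2, with the widest interval, is left out. Filled symbols passed the test, and of the genes shown only Atp5g1 and Atp5sl lie above 0.

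Among 46 other tested genes of the pathway without complex I, 37 rose and 1 fell under CL at 2 months, and 33 rose and 3 fell at 12 months. Over all tested genes 21.7% were called higher and 22.1% lower at 2 months, and 23.1% and 22.2% at 12 months. These shares also stand beside the counts of the classes below. All 5 assembly factors of complex III rose at 2 months, Uqcc1 most (1.35), and 4 of 5 at 12 months, with Uqcc2 at 0.29 (edgeR adjusted p = 0.102). For complex IV assembly and translation 17 of 19 rose at 2 months and 14 at 12 months, among them Higd1a (1.51 and 1.15) and Lrpprc (0.96 and 0.72), which stabilises mitochondrial messenger RNA. Slirp, the partner of Lrpprc, rose at 2 months (0.96) and not at 12 months (0.16, edgeR adjusted p = 0.337), and the difference passed (-0.80, edgeR adjusted p = 0.0199).

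For complex V, the assembly factor gene Atpaf2 rose by 1.99 and 1.41 and the accessory subunit gene Usmg5 by 1.91 and 1.15. Atpif1, which encodes the inhibitor that stops ATP synthase from running backwards, stood at 26.8 ± 2.48 normalised CPM under vehicle and 27.7 ± 3.8 under CL at 2 months (SD, n = 4 and 4, log2 change 0.05, edgeR adjusted p = 0.81). At 12 months it fell from 38.7 ± 9.27 to 27.4 ± 3.13 (SD, n = 3 and 4, log2 change -0.48, edgeR adjusted p = 0.0192), while the difference between ages did not pass (-0.53, edgeR adjusted p = 0.132). All 4 genes of complex II rose at both ages, with Sdhd at 2.12 and 1.03. In complex I 38 of 38 rose at 2 months (median 1.70) and 35 of 38 at 12 months (median 0.98), close to the medians of the 50 genes. These 38 were taken by symbol and include Ndufa4l2 and Ndufa4, the latter also counted above with complex IV assembly. At 12 against 2 months under CL, 30 of the 38 were lower and 0 higher (median -0.53), beside 19.4% of all tested genes called lower. The difference in CL changes passed for 22, all lower (median -0.71), beside 3.77% called lower.

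Of 11 regulators of respiratory chain genes, 6 rose and 1 fell at 2 months, beside 21.7% of all tested genes called higher and 22.1% lower. At 12 months 5 rose and 2 fell, beside 23.1% and 22.2% of all tested genes. The coactivator genes Ppargc1a (1.30 and 1.24) and Ppargc1b (1.24 and 1.08) and the nuclear receptor gene Esrra (1.21 and 0.63) rose at both ages, and for Esrra the smaller rise at 12 months passed the test of the difference (-0.59, edgeR adjusted p = 0.0388). Gabpa rose at 2 months (0.45), and Gabpb1, its partner, fell at both ages (-0.31 and -0.34). Nrf1 stood at -0.22 at 2 months (edgeR adjusted p = 0.0675) and fell at 12 months (-0.30, edgeR adjusted p = 0.0249), and Tfam, the packaging factor of mitochondrial DNA, passed at neither age (0.21 and -0.02).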

How the data were processed

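Gene expression was measured by sequencing polyadenylated RNA of 15 libraries. The values are raw counts per gene in a table the authors deposited. Reads had been aligned to mm9 with STAR and counted with featureCounts of Subread, per the submitters' processing notes, whose versions and handling of multi-mapping reads are not given in the sources used here. Libraries were grouped by their labels, and no column lacked a sample. In R 4.3.3, genes with low counts were filtered by group, TMM factors were computed, and edgeR 4.0.16 fitted 1 mean per group to all 15 libraries with its robust quasi-likelihood test. P-values were adjusted by the Benjamini-Hochberg method over 15288 genes, and the threshold was 0.05. Compared were both treatments within each age, both ages within each treatment, and the CL changes between the ages. Intervals are 95% intervals of the fitted log2 change. The fit was tested on simulated data. In the counts the authors deposited, Cox6b2 (11 to 130 per library) and Cox4i2 (19 to 199) had the fewest, and a count of 3 stands for the lowest level told from 0.

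The genes and lists were chosen with earlier results of these data known. Every kept gene could be named. For each CL comparison the rule named, per class, the genes with the largest and smallest changes, those not called or falling, and the isoform sets, and for the age comparisons the called genes with the smallest p. Other pathway genes were to be those with the smallest p per class, and Uqcc2, Slirp, Lrpprc, Atpif1, Nrf1, Gabpa, Gabpb1 and Tfam were named after their values were seen. Alternatives were RLE and upper-quartile factors, DESeq2 1.42.0, limma-voom (limma 3.58.1), no filter, a filter at a mean of 10 counts, a replicate block, Old_CL 1, 2 and 4 summed, leaving out the 5 libraries rich in muscle transcripts, the muscle score as a covariate, only the groups compared, and leaving out each library. Promoter windows and their positions came from the RefSeq table of GRCm38.p6, another build than that of the counts, and were matched by symbol.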

Additional observations from a re-analysis of the deposited data

Results flagged for a closer look

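In 87 groups of 4 libraries, from 29 genes, 7 libraries lay far from the other 3, where chance gives about 1 in 20 groups. Atp5g1 was at 20.4 normalised CPM in Young_CL 4, the lowest of its group. Atp5j2 was at 252.6 and Cyc1 at 618 in Old_CL 3, and Cox6a2 was at 14.1 in the same library, each the highest of its group. Cox19 was at 32.1 in Young_Ctrl 1. Cox5b was at 394 in Young_CL 3, and Cox6b2 was at 1.46 in Young_Ctrl 3, the lowest of its group.

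The CL change differed between the ages, by the test of the difference itself, in 17 genes. All had a negative difference on the log2 scale, beside 3.77% of all tested genes called lower. In complex III these were Uqcr10 (-1.22), Uqcrfs1 (-0.88), Uqcrh (-0.96) and Uqcrq (-1.06). In complex IV they were Cox4i1 (-0.77), Cox5a (-1.29), Cox6a1 (-0.87), Cox6b1 (-0.99), Cox6b2 (-1.76) and Cox7c (-0.91), and in its assembly Cox11 (-0.57) and Cox17 (-1.05). In complex V they were Atp5e (-0.93), Atp5f1 (-0.65), Atp5h (-0.62), Atp5j2 (-0.90) and Atp5k (-0.77). Of 25 alternative analyses, the call held in 9 for Cox6a1, Cox11 and Atp5h, 12 for Atp5k and 13 for Atp5f1 and Uqcrfs1. It held in 14 for Cox4i1 and in 19 to 25 for each of the others.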

How the results depend on the processing

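The CL calls at 2 months (43 to 44 genes) and 12 months (39 to 43) stayed within 1.5 times their number when each library was left out. The age calls under vehicle ran from 3 to 14, the latter without Young_Ctrl 1, and those under CL came to 15 without the 5 muscle-rich libraries. Genes whose CL change differed between the ages numbered 10 with the replicate block and 3 with Old_CL 1, 2 and 4 summed. They numbered 10 with the muscle score as covariate and 6 to 32 when each library was left out. They were also fewer without the muscle-rich libraries. Of 21 same-numbered pairs 6 correlated above 0.1, with correlations from -0.35 to 0.34. Pairs with different numbers were not correlated, so whether replicate numbers pair the samples was not settled. The block gave 44 and 40 calls for CL, 4 and 30 for age and 10 for the difference between ages. No share of all tested genes is given for the settings of this paragraph. Whether these shifts in number are particular to these genes therefore cannot be read.

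No value whose sign turned passed the test, before or after. Atp5g1 under CL at 2 months was -0.0261 with upper-quartile factors, -0.3196 without the muscle-rich libraries and -0.0762 with the covariate, and at 12 months -0.0030 with upper-quartile factors. Its difference between ages was -0.0001 with RLE, -0.0029 in DESeq2, -0.0112 in limma-voom, -0.0364 with the replicate block and -0.0922 to 0.0671 with each library left out. Cox6a2 without the muscle-rich libraries was -0.9629 and with the covariate -0.3412 for CL at 2 months; without those libraries it was -0.22 for age under vehicle, 0.0766 for age under CL and 0.2966 for the difference. With each library left out it ran from -2.6105 to 1.1973 for CL at 12 months and -0.1721 to 2.2499 for age under vehicle, and its values without Old_CL 3 passed for CL at 12 months (-2.6105), age under CL (-2.6064) and the difference (-4.3644). Cox7a2l was -0.0247 with upper-quartile factors and -0.066 without the muscle-rich libraries for CL at 2 months, and for age under vehicle -0.0028, -0.0147 and, leaving out each library, -0.0658 to 0.1283. Atp5sl for CL at 12 months was 0.0296 without the muscle-rich libraries and -0.208 to 0.004 with each library left out. Cox7a2 for age under vehicle was -0.0025 with RLE, -0.0128 with upper-quartile factors, -0.0225 without the muscle-rich libraries and -0.0638 to 0.176 with each library left out. Atp5g2 for age under CL was -0.0392 without the muscle-rich libraries. The cause was not tested. Counts were fewest for Cox6b2 and Cox4i2. Leaving out the muscle-rich libraries leaves 1 Young_CL library, whose spread is assumed to be that of the other groups.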
